A study of Mus musculus with 6 samples.

Results

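The clustered histone genes are the 68 genes of the deposited count table, of 23420 genes in all, whose symbols begin with Hist1h, Hist2h, Hist3h or Hist4h. They encode 6 linker histones of the H1 family, 18 H2A, 19 H2B, 12 H3 and 13 H4 genes, counting 1 H2B pseudogene. By annotation 54 lie on chromosome 13, 10 on chromosome 3, 3 on chromosome 11 and 1 on chromosome 6. They were described in 3 classes by textbook knowledge: 8 likely polyadenylated genes, 56 replication-type genes and 3 testis-type genes, with the pseudogene apart.

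The 6 libraries came from mouse embryonic fibroblasts of mixed 129/Sv-C57BL/6 background that carry the adenoviral oncogene E1A and the activated Ras gene HrasG12V. Each of 3 lines gave 1 library with a single guide RNA against p53 (sgp53) and 1 with a non-targeting guide (sgNTC). The labels call sgp53 lines 1 and 3 p53 null, sgp53 line 2 functionally inactive for p53, and all 3 sgNTC lines p53 wild-type. All cells were grown at 5% oxygen and 5% CO2, with a recovery of 24 h before harvest. The labels say neither whether a line is a clone nor whether each line had its own embryo. The p-values below set the difference between groups against the spread among the 3 libraries within each group. Only the fit with a term for the line uses the pairing. The p-values therefore reach no further than these 3 lines.

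Clustered histone genes supply most of the histone protein that packages new DNA in S phase. Most replication-type genes have no introns, and their mRNAs typically end after a short stem-loop bound by the protein SLBP instead of in a poly(A) tail. A smaller number of clustered genes can also make polyadenylated mRNA, which lasts outside S phase, and testis-type members package DNA in germ cells. The labels name the library kit but not how ribosomal RNA was removed, so how well mRNAs without a poly(A) tail could be captured is not given in the sources used here.

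The stem-loop is the sequence by which cells recognise histone mRNAs, so it is shown for 5 members whose levels are given below, with 5 bases on each side. Capitals mark the paired arms of the stem, and the lower case letters between them are the loop. The sequences were read 5′ to 3′ from the GENCODE M21 transcript models on GRCm38, the assembly that mm10 denotes.
Hist1h1c: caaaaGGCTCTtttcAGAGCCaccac
Hist3h2a: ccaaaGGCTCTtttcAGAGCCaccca
Hist1h2ae: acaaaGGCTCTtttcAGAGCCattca
Hist2h3c1: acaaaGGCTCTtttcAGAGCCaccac
Hist1h4i: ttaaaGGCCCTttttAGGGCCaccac

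The pattern searched on the transcript strand was an arm of 6 bases that begins with GG and ends with T, a loop of TTT and any base, and an arm complementary to the first. It was in the annotated model of 44 of the 68 members and in 0.251% of all 21901 protein-coding genes, where 44 of the 55 genes that held it were members. The form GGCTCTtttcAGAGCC was in 26 members and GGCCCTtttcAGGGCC in 7, and the 11 H4 genes with a match all had arms that begin with GGCCCT or GGTCCT. Hist1h2bc and Hist2h2be, H2B genes of the likely polyadenylated class, had no match in their models. A further 13 members had models that end at or before the stop codon, so no match in them says nothing about their 3′ ends.

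The promoters of the H1 gene Hist1h1c and the H2A gene Hist3h2a are shown because these were among the members with most counts. Another reason is that both genes were lower in sgp53 in lines 1 and 3 and higher in line 2. The windows span 250 bases before to 50 after the start in RefSeq's GRCm38.p6 table. Capitals mark matches on either strand to the CCAAT box (CCAAT), the H1 box (AAACACA) and the octamer (ATTTGCAT), letters known from work on vertebrate histone promoters.
Hist1h1c, chr13:23738557-23738856, plus strand: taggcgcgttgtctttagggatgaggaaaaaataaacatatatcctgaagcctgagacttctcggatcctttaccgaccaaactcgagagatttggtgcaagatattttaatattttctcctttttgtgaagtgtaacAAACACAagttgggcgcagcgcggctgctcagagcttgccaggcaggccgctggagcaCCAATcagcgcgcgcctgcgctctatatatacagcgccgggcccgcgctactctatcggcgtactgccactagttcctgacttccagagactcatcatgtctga
Hist3h2a, chr11:58954435-58954734, plus strand: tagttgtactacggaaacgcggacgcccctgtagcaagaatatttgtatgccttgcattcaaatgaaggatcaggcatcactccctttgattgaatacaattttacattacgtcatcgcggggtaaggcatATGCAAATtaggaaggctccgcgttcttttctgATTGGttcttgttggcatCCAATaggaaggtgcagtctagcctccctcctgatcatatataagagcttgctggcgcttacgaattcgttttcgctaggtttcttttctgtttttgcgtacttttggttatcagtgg

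RefSeq promoters were matched for 62 entries of the members. CCAAT was in 85.5% of them against 37.4% of all 32851 promoters, and it was in every H1, H2A, H2B and H3 promoter but in 3 of 12 H4 promoters. The octamer was in 38.9% of the H2A and 37.5% of the H2B promoters, in 0 of the H1, H3 and H4 promoters, and in 1.74% of all promoters. The H1 box was in 5 of 6 H1 promoters and in 7.18% of all promoters. TATAAA was in 56.5% of member promoters and in 13.6% of all. These are matches of letters and not measured binding sites.

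RNA from the clustered histone genes was scarce. The library totals were 29703837, 35860866 and 29564516 counts in sgp53 lines 1, 2 and 3, and 32536641, 27503577 and 28956001 counts in sgNTC lines 1, 2 and 3. Members held 15200 counts over the 6 libraries, between 0.00545% and 0.0132% of a library. At 0 in every library were 7 members, 17 had between 1 and 9 counts in total, and 6 had at least 200. A filter on low counts (edgeR's filterByExpr) passed 13044 genes in all and 18 members: 6 of the 8 likely polyadenylated genes, 12 of the 56 replication-type genes and none of the testis-type genes or the pseudogene.

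Most of the member counts came from the likely polyadenylated genes. They held 80.8%, 83.5% and 75.4% of member counts in sgp53 lines 1, 2 and 3, against 82.6%, 83.9% and 87.0% in sgNTC lines 1, 2 and 3. The replication-type genes held 24.5% in sgp53 line 3, the highest of the 6 libraries, and between 12.9% and 19.1% in the others. Counts per kb of annotated exon put Hist1h1c first at 21.7 CPM per kb, the mean of 6 libraries. CPM is the count scaled to a normalized library total of 1000000. Hist1h2bc followed at 9.05, Hist3h2a at 8.20, the replication-type H4 gene Hist1h4i at 5.41 and the H2B gene Hist3h2ba at 2.91 CPM per kb. No other member was above 1.12 CPM per kb, and the median of all 68 was 0.152.

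Most member counts lay in genes with a long annotated 3′ end. The 17 members with a polyadenylation signal (AATAAA or ATTAAA) in the last 50 bases of a model held 77.1% of member counts, and the 51 others held 22.9%. Models with more than 100 bases after the stop codon belonged to 31 members with 95.1% of the counts, and models with at most 100 such bases belonged to 36 members with 4.88%. These shares rest largely on 3 genes: Hist1h1c, Hist3h2a and Hist1h2bc together held between 71.7% and 79.0% of member counts in a library. Hist1h2bc, with 1980 counts, has no polyadenylation signal near the end of its model. The median level was 0.159 CPM per kb for models with more than 100 bases and 0.125 with at most 100. It was 0.201 CPM per kb with a signal and 0.126 without. Members with a stem-loop in a model held 80.6% of the counts, since Hist1h1c, Hist3h2a and Hist3h2ba have both a stem-loop and a longer 3′ end. Hist1h4i, classed as replication-type, also had 376 bases after its stop codon and a polyadenylation signal. It was not the only gene of its class with a signal. The others were Hist1h2ae, Hist2h3c1, Hist1h4h, Hist1h4a, Hist2h4 and Hist1h4j, and Hist1h2bq and Hist1h2br at 0 counts. A longer model collects more reads, and the level per kb corrects for this only as far as the annotation is right.

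**Figure D1:**
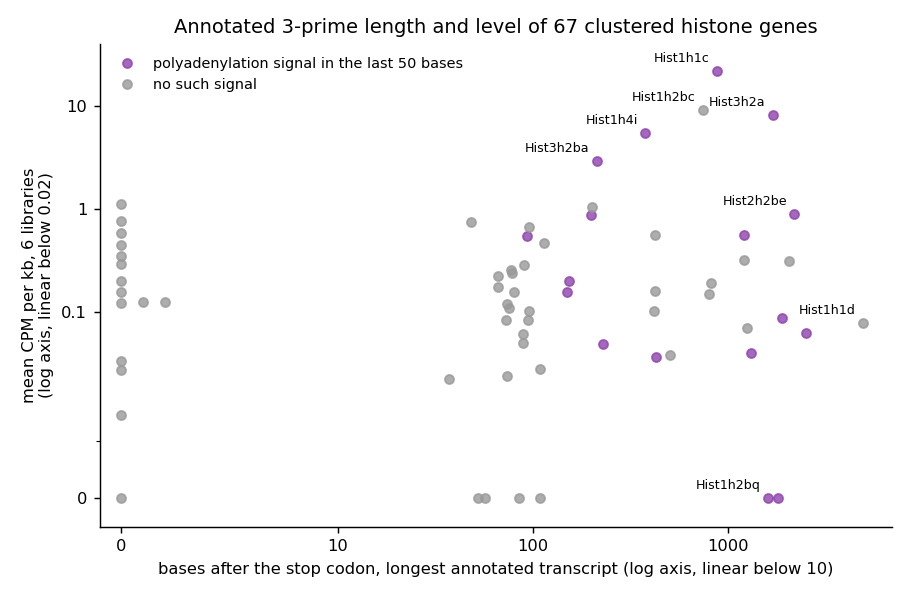
Each point is 1 clustered histone gene, with the bases after the stop codon in its longest annotated transcript on the horizontal axis and its mean level over 6 libraries in CPM per kb on the vertical axis (both log axes, linear near 0). The 5 genes of highest level, from Hist1h1c at 21.7 to Hist3h2ba at 2.91 CPM per kb, all have more than 100 bases there, and of the genes with fewer, Hist1h4k alone is above 1 CPM per kb.

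Many members are near-identical copies, which limits what their counts say. The share of 50-base windows found in no other gene had a median of 48.1% over the 68 members and was under 50% for 34 of them. Among the 7 members at 0 in every library that median was 6.93%. Hist2h3c1 and Hist2h2bb had no such window, so their counts depend on how the authors' counter treated reads with several places. Hist1h1c had 91.5% and Hist2h2be 100%, so these 2 genes are the least open to this limit among the members with most counts.

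No clustered histone gene that could be tested passed the test between sgp53 and sgNTC. At an edgeR adjusted p under 0.05, 0 of the 18 tested members were called, against 6.45% of all 13044 genes (841 genes, 360 higher and 481 lower in sgp53). The count was also 0 in edgeR with a term for the line (2.38% of all genes), with DESeq2 (17.3%) and with limma-voom (5.35%). At an unadjusted p under 0.05 there was 1 member, Hist2h2be, of 18, against 29.0% of all genes. The levels of the 2 groups did not overlap for 2 of 18 members, against 36.8% of all genes. The median log2 fold change over the 18 was −0.32, with 11 negative and 7 positive values, and over all genes it was −0.01. That median was 0.32 without sgNTC line 1 and 0.22 without line 1, so its sign rests on line 1.

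Hist1h1c encodes H1.2, a linker histone that binds DNA between nucleosomes. It had 24.6, 37.0 and 22.2 CPM in sgp53 lines 1, 2 and 3, against 54.6, 23.9 and 40.5 CPM in sgNTC lines 1, 2 and 3. The sgp53 level was lower in lines 1 and 3 and higher in line 2, and the groups overlapped. The means were 28.0 ± 7.95 CPM in sgp53 and 39.6 ± 15.4 CPM in sgNTC (SD, n = 3 each). The fitted log2 fold change was −0.50 (SE 0.33), with an edgeR adjusted p = 0.352, and the log2 fold change was −0.20 without sgNTC line 1. The bulk libraries cannot tell fewer cells with this RNA from less of it per cell, for this or any other gene.

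Hist3h2a encodes an H2A protein and lies beside Hist3h2ba on chromosome 11. It had 16.6, 23.6 and 13.2 CPM in sgp53 lines 1, 2 and 3, against 25.8, 10.1 and 16.3 CPM in sgNTC lines 1, 2 and 3. Its sgp53 level was lower in lines 1 and 3 and higher in line 2, with overlapping groups (log2 fold change 0.03, SE 0.37, edgeR adjusted p = 0.965). Hist1h2bc, an H2B gene, had 8.50, 12.5 and 6.67 CPM in sgp53 lines 1, 2 and 3, against 18.1, 7.14 and 9.85 CPM in sgNTC lines 1, 2 and 3. The order of its lines was the same as for Hist3h2a, and its log2 fold change was −0.34 (SE 0.39, edgeR adjusted p = 0.593). Without sgNTC line 1 the log2 fold changes were 0.43 for Hist3h2a and 0.12 for Hist1h2bc.

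Hist2h2be, an H2B gene on chromosome 3, was the member nearest to the threshold. It had 1.16, 2.08 and 0.912 CPM in sgp53 lines 1, 2 and 3, against 2.86, 2.39 and 4.50 CPM in sgNTC lines 1, 2 and 3. Every sgp53 library was below every sgNTC library, and the difference was smallest in line 2, at −0.19 on the log2 scale, against −1.25 in line 1 and −2.22 in line 3. The means were 1.39 ± 0.618 CPM in sgp53 and 3.25 ± 1.11 CPM in sgNTC (SD, n = 3 each). The fitted log2 fold change was −1.22 (SE 0.40), with an edgeR adjusted p = 0.109. The adjusted p was 0.192 with the line as a block in edgeR and 0.0516 with DESeq2, and the log2 fold change was −0.69 without line 3. Its counts were 34, 75 and 26 in sgp53 and 95, 66 and 133 in sgNTC, so the values rest on few reads.

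Hist3h2ba, also an H2B gene, had 1.47, 1.39 and 0.597 CPM in sgp53 lines 1, 2 and 3, against 4.18, 1.27 and 1.83 CPM in sgNTC lines 1, 2 and 3. The log2 difference within a line, sgp53 minus sgNTC, was −1.47 in line 1, 0.13 in line 2 and −1.52 in line 3, and the groups overlapped (log2 fold change −1.07, SE 0.55, edgeR adjusted p = 0.249). Without sgNTC line 1 the log2 fold change was −0.42. Hist1h2be, an H2B gene, had 4, 15 and 12 counts in sgp53 lines 1, 2 and 3, against 17, 13 and 11 counts in sgNTC lines 1, 2 and 3. Its groups overlapped, with a log2 fold change of −0.46 (SE 0.47), which was −0.11 without sgp53 line 1. The remaining likely polyadenylated genes, Hist1h2bp and Hist4h4, had 20 and 33 counts over the 6 libraries and were not tested.

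Among replication-type genes, Hist1h4i, an H4 gene, was the only one with at least 200 counts. It had 3.55, 3.70 and 3.09 CPM in sgp53 lines 1, 2 and 3, against 6.67, 3.22 and 3.39 CPM in sgNTC lines 1, 2 and 3. The sgNTC library of line 1 was above the other 5, which lay close together, and the log2 fold change was −0.36 (SE 0.32, edgeR adjusted p = 0.483), and 0.06 without that library. The H4 gene Hist1h4k had 7, 22 and 13 counts in sgp53 lines 1, 2 and 3, against 14, 2 and 9 counts in sgNTC lines 1, 2 and 3, and only 28.5% of its windows are its own. Hist1h4h, the third H4 gene by mean CPM, had between 4 and 21 counts in a library and was not tested.

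The linker histone genes Hist1h1e, Hist1h1d and Hist1h1a had between 6 and 44 counts in a library. Hist1h1e had 0.580, 0.584 and 0.491 CPM in sgp53 lines 1, 2 and 3, against 1.26, 0.290 and 0.474 CPM in sgNTC lines 1, 2 and 3. For all 3 genes the sgNTC library of line 1 was the highest of the 6 and that of line 2 the lowest, while the sgp53 libraries lay between them. Their log2 fold changes were −0.30 (SE 0.55), 0.37 (SE 0.52) and −0.38 (SE 0.66) for Hist1h1e, Hist1h1d and Hist1h1a. Without sgNTC line 1 they were 0.52, 1.05 and 0.80 in the same order, so the negative sign of Hist1h1e and Hist1h1a rests on that library.

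Of the H2A genes, Hist1h2ac had 0.341, 0.667 and 0.597 CPM in sgp53 lines 1, 2 and 3, against 1.95, 0.471 and 0.610 CPM in sgNTC lines 1, 2 and 3. The sgNTC library of line 1 was far above the other 5 (log2 fold change −0.92, SE 0.61, edgeR adjusted p = 0.362). Without it the log2 fold change was −0.01. Hist1h2ae had 0.956, 0.667 and 0.702 CPM in sgp53 lines 1, 2 and 3, against 0.541, 0.326 and 0.508 CPM in sgNTC lines 1, 2 and 3. It was the only tested member with a higher sgp53 level in every line, and its groups did not overlap (log2 fold change 0.74, SE 0.33, edgeR adjusted p = 0.196). These are 28, 24 and 20 counts in sgp53 against 18, 9 and 15 counts in sgNTC. Hist1h2ak, the third of the replication-type H2A genes by mean CPM, had between 2 and 13 counts in a library and was not tested.

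The H3 genes Hist2h3c1 and Hist2h3c2 encode the same kind of H3 protein from neighbouring copies on chromosome 3. Hist2h3c1 had 1.02, 1.47 and 0.737 CPM in sgp53 lines 1, 2 and 3, against 1.56, 0.435 and 0.813 CPM in sgNTC lines 1, 2 and 3. The sgp53 level was lower in lines 1 and 3 and higher in line 2, and Hist2h3c2 had the same order (log2 fold changes 0.20, SE 0.51, and −0.28, SE 0.52). Without sgNTC line 1 their log2 fold changes were 0.79 and 0.21, and without sgNTC line 2 they were −0.14 and −0.62. Hist1h3g had between 5 and 18 counts in a library and a log2 fold change of 0.17 (SE 0.49), which was 0.73 without sgNTC line 1 and −0.11 without sgNTC line 2. The H2B gene Hist1h2bg had 0.376, 0.889 and 0.421 CPM in sgp53 lines 1, 2 and 3, against 0.992, 0.580 and 0.610 CPM in sgNTC lines 1, 2 and 3 (log2 fold change −0.36, SE 0.45, and −0.07 without sgNTC line 1). Hist2h2bb and Hist1h2bh had at most 17 counts in a library and were not tested.

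**Figure D2:**
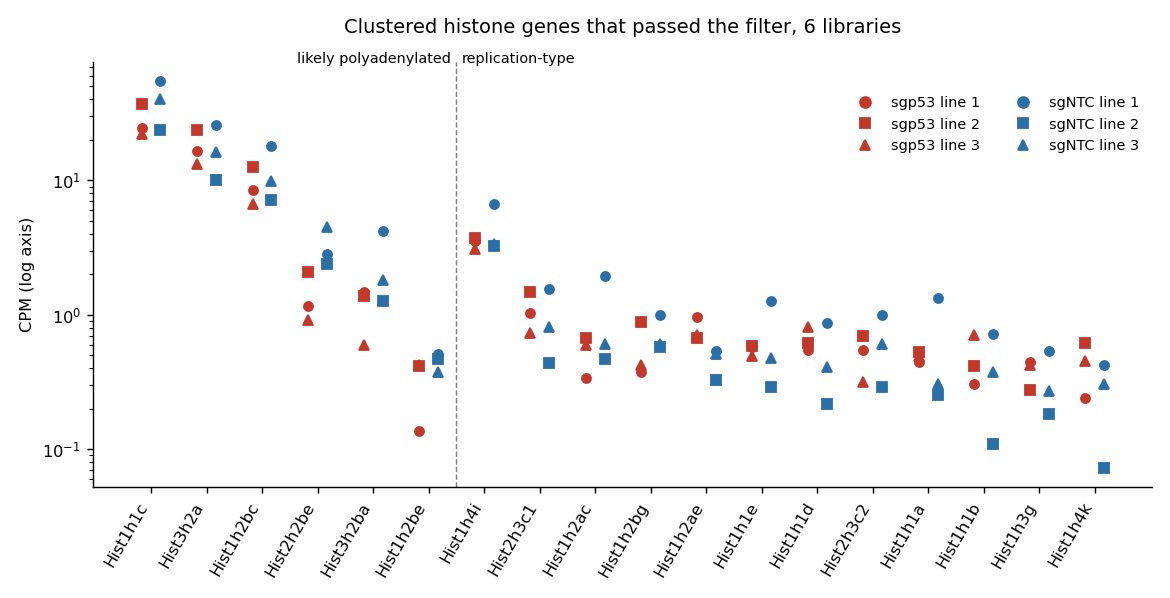
Points are CPM (log axis) of the 18 clustered histone genes that passed the filter, sgp53 left and sgNTC right for each gene, with line 1 as circles, line 2 as squares and line 3 as triangles. The groups overlap for all genes but Hist2h2be, lower in sgp53, and Hist1h2ae, higher in sgp53, and sgNTC line 1 is often the highest point.

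The testis-type genes were at or near 0. Hist1h1t, a linker histone of male germ cells, had 0, 1 and 2 counts in sgp53 lines 1, 2 and 3, against 2, 2 and 1 counts in sgNTC lines 1, 2 and 3. Hist1h2aa had 1 count in sgp53 line 1 and 0 in the other libraries, and Hist1h2ba had 0 in all 6, which allows for up to 3 counts. The pseudogene Hist3h2bb-ps had 0 counts in sgp53 and 2 in sgNTC.

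The direction of the difference was not the same in the 3 lines. In line 1, 17 of the 18 tested members were lower in sgp53, against 51.8% of all genes, with a median difference in log2 CPM of −1.06. In line 2, 16 of 18 were higher in sgp53, against 50.1% of all genes, with a median of 0.84. In line 3, 10 were lower and 8 higher, with a median of −0.08. Of the 18, 9 were lower in lines 1 and 3 and higher in line 2, which is 50% of members and 9.55% of all genes. Another 6 were lower in line 1 and higher in lines 2 and 3, 33.3% of members and 7.93% of all genes. Hist2h2be alone was lower in sgp53 in every line, a pattern that 27.0% of all genes had. The sgp53 cells of line 2 are the ones labelled functionally inactive, but with 1 library for each line and guide, the line, the state of p53 and the library cannot be told apart.

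**Figure D3:**
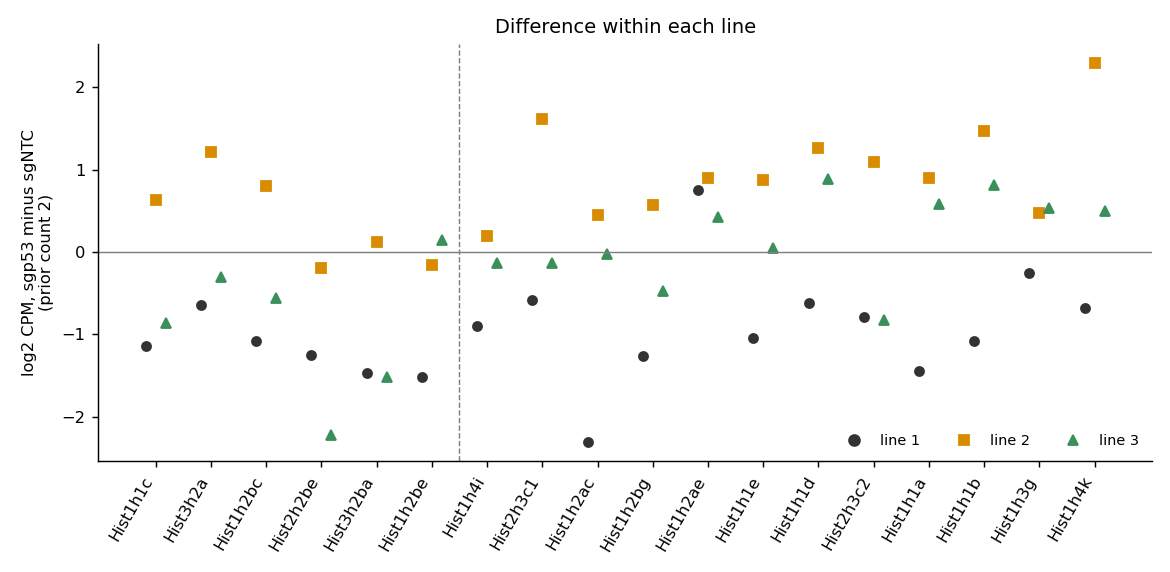
Each point is the difference in log2 CPM (prior count 2), sgp53 minus sgNTC, for 1 tested clustered histone gene in 1 line, with likely polyadenylated genes left of the dashed line. Line 1 lies below 0 for 17 of 18 genes and line 2 above 0 for 16 of 18, while line 3 is below 0 for 5 of the 6 likely polyadenylated genes and above 0 for 7 of the 12 replication-type genes.

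The summed levels of the 2 classes had the same direction in lines 1 and 2 and opposite directions in line 3. The 8 likely polyadenylated genes summed to 52.9, 77.3 and 44.2 CPM in sgp53 lines 1, 2 and 3, against 106, 45.6 and 73.5 CPM in sgNTC lines 1, 2 and 3. The log2 ratio of these sums was −1.01 in line 1, 0.76 in line 2 and −0.73 in line 3. The 56 replication-type genes summed to 12.5, 15.3 and 14.4 CPM in sgp53 lines 1, 2 and 3, against 22.4, 8.66 and 10.9 CPM in sgNTC lines 1, 2 and 3. Their log2 ratio was −0.84 in line 1, 0.82 in line 2 and 0.39 in line 3. This sum includes 44 genes with too few counts to be tested. In line 3, 7 of the 12 tested replication-type genes were higher in sgp53 and 5 were lower. Those with most counts, Hist1h4i, Hist2h3c1 and Hist1h2ac, were lower there, with log2 differences of −0.13, −0.13 and −0.03. A split of the classes in line 3 therefore rests largely on genes of few counts. The replication-type sum averaged 14.0 ± 1.42 CPM in sgp53 and 14.0 ± 7.34 CPM in sgNTC, and the likely polyadenylated sum averaged 58.1 ± 17.2 CPM in sgp53 and 75.2 ± 30.4 CPM in sgNTC (SD, n = 3 each). For both sums the 3 sgNTC libraries spread further than the 3 sgp53 libraries, and the ranges overlapped. No test was run on the sums.

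**Figure D4:**
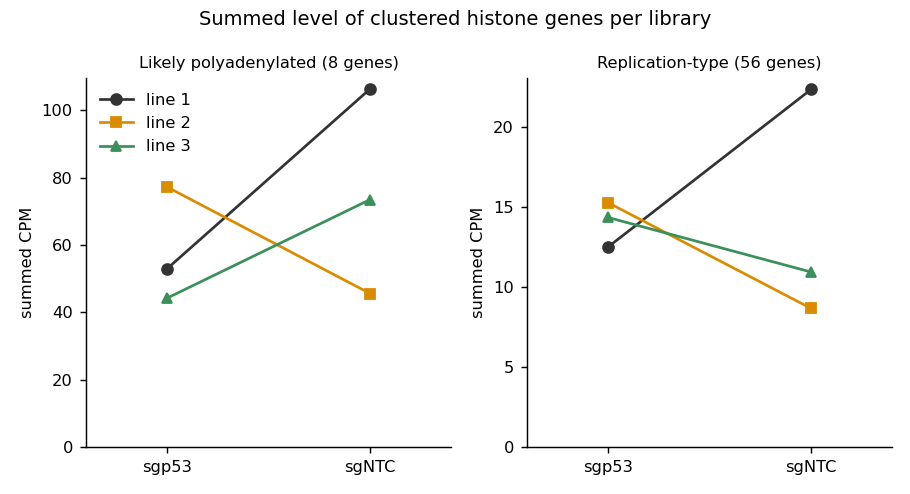
Summed CPM of the 8 likely polyadenylated genes (left panel) and the 56 replication-type genes (right panel) in each library, with a line joining the sgp53 and sgNTC libraries of 1 cell line and both axes starting at 0. Line 1 is lower in sgp53 and line 2 higher in sgp53 in both panels, and line 3 is lower on the left (44.2 CPM in sgp53 against 73.5 CPM in sgNTC) and higher on the right (14.4 CPM in sgp53 against 10.9 CPM in sgNTC).

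Measured facts about the libraries stand beside these values, and their part in them was not tested. The targeted gene Trp53 had 71.1, 72.0 and 113 CPM in sgp53 lines 1, 2 and 3, against 206, 277 and 253 CPM in sgNTC lines 1, 2 and 3 (log2 fold change −1.52, edgeR adjusted p = 0.0168). It was lower in sgp53 in every line. The ribosomal RNA precursor Rn45s, picked with its values in view, had 3338 CPM in sgp53 line 3 and between 636 and 864 CPM in the other libraries. That library also had the highest replication-type share of member counts. Of 8 fibroblast markers, the collagen genes Col1a1, Col1a2 and Col3a1 were higher in sgp53 and the other 5 were not called, and the list summed to between 6963 and 9691 CPM in sgp53 and between 5540 and 6614 CPM in sgNTC. Most of this sum was Fn1 (mean 4078 CPM in sgp53 and 2938 CPM in sgNTC) and Vim (2688 and 3121 CPM). Vim alone of the 8 had a negative log2 fold change, at −0.22. Thy1 and Pdgfra were lower in sgp53 in line 2, by −0.27 and −0.49 on the log2 scale. Of 4 epithelial markers Krt18 was lower in sgp53 (edgeR adjusted p = 0.0295, and 0.0534 with the line as a block), and the list summed to between 88.7 and 132 CPM in sgp53 and between 259 and 646 CPM in sgNTC. Krt18 itself averaged 66.7 CPM in sgp53 and 415 CPM in sgNTC, most of this sum. Epcam and Krt8 had log2 fold changes of −1.17 and −0.77 and Cdh1 had 0.10, none of them called by edgeR. Krt8 was higher in sgp53 in line 3. The macrophage marker Cd68, the tested 1 of 3 immune markers, was lower in sgp53, at 3.51 to 3.92 CPM against 7.42 to 10.4 CPM in sgNTC. Of the others, Ptprc was at 0 in 4 libraries. The 3 endothelial markers summed to between 1.61 and 1.81 CPM in sgp53 and between 1.96 and 2.52 CPM in sgNTC. Most of this sum was Kdr, which was tested and not called (mean 1.42 CPM in sgp53 and 1.87 CPM in sgNTC). Cdh5 and Pecam1 were too low to test. Pecam1 went the other way, with 4, 8 and 2 counts in sgp53 lines 1, 2 and 3 against 1, 3 and 0 counts in sgNTC.

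The genes of S phase entry did not follow this pattern of lines. All 20 genes of the list on S phase entry and replication had a negative log2 fold change, with a median of −0.28. Over all 13044 tested genes, 6717 values were negative. By edgeR, 4 of the 20 were called lower and 0 higher (3.69% and 2.76% of all genes). DESeq2 called 11 of the 20 (17.3% of all genes) and limma-voom 4 (5.35%). The levels of the groups did not overlap for 13 of the 20, against 36.8% of all genes. The list's median difference in log2 CPM was −0.21 in line 1, −0.41 in line 2 and −0.22 in line 3, against −1.06, 0.84 and −0.08 for the members. Among the genes called by edgeR, the E-type cyclin Ccne2 averaged 38.5 ± 3.01 CPM in sgp53 and 58.4 ± 2.32 CPM in sgNTC. Ccne1 averaged 54.3 ± 4.77 CPM in sgp53 and 95.8 ± 15.6 CPM in sgNTC (SD, n = 3 in each group). The replication clamp Pcna averaged 193 ± 13.4 CPM in sgp53 and 256 ± 18.1 CPM in sgNTC. The kinase Cdk2, chosen outside the rule for named genes, averaged 105 ± 5.29 CPM in sgp53 and 133 ± 8.22 CPM in sgNTC. With the line as a block, Ccne2 and Pcna were called (edgeR adjusted p = 0.0478 each) and the other 2 were not. In line 2, 20 of the 20 S phase genes were lower in sgp53, where 16 of 18 members were higher.

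Of 14 tested genes for the transcription and 3′ processing of histone mRNA, edgeR called 0 (6.45% of all genes), with 4 at an unadjusted p under 0.05 (29.0% of all genes). Of the same 14, limma-voom called 0 (5.35% of all genes) and DESeq2 called 3 (17.3% of all genes). The list is represented by its 2 genes of highest mean CPM, Srrt, which links the cap-binding complex to 3′ end formation (346 ± 16.2 CPM in sgp53 and 323 ± 10.5 CPM in sgNTC), and Sympk, a scaffold of the cleavage complex (289 ± 15.4 CPM in sgp53 and 251 ± 15.5 CPM in sgNTC; SD, n = 3 in each group). Slbp, which encodes the stem-loop binding protein and is named here only after a look at its values, had 114, 123 and 108 CPM in sgp53 lines 1, 2 and 3, against 131, 158 and 144 CPM in sgNTC lines 1, 2 and 3. Its groups did not overlap, which also held for 36.8% of all genes and for 7 of the 14 in this list, Slbp included. Its log2 fold change was −0.33 (SE 0.09, edgeR adjusted p = 0.0709), which did not pass the threshold. With DESeq2 its adjusted p was 0.0130, so it is among the 3 genes that DESeq2 called.

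Of 11 tested histone variant genes outside the clusters, most of which make polyadenylated mRNA, 2 were called lower and 0 higher in sgp53, against 3.69% lower and 2.76% higher of all genes. H2afj, an H2A variant, averaged 25.0 ± 3.65 CPM in sgp53 and 48.4 ± 10.6 CPM in sgNTC (SD, n = 3 each). Its fitted log2 fold change was −0.95 (SE 0.18), with an edgeR adjusted p = 0.0361, and 0.0607 with the line as a block. The linker histone variant H1fx averaged 40.2 ± 4.48 CPM in sgp53 and 54.0 ± 1.90 CPM in sgNTC (edgeR adjusted p = 0.0498, and 0.0846 with the line as a block). The list of 11 summed to 2747, 2940 and 2404 CPM in sgp53 lines 1, 2 and 3, against 2644, 2765 and 2825 CPM in sgNTC lines 1, 2 and 3. Of 19 tested histone chaperones and assembly genes, 1 was called, against 6.45% of all genes. It was Hat1, an acetyltransferase of new H4, at 144 ± 5.63 CPM in sgp53 and 174 ± 8.02 CPM in sgNTC (edgeR adjusted p = 0.0472, and 0.0806 with the line as a block).

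**Figure D5:**
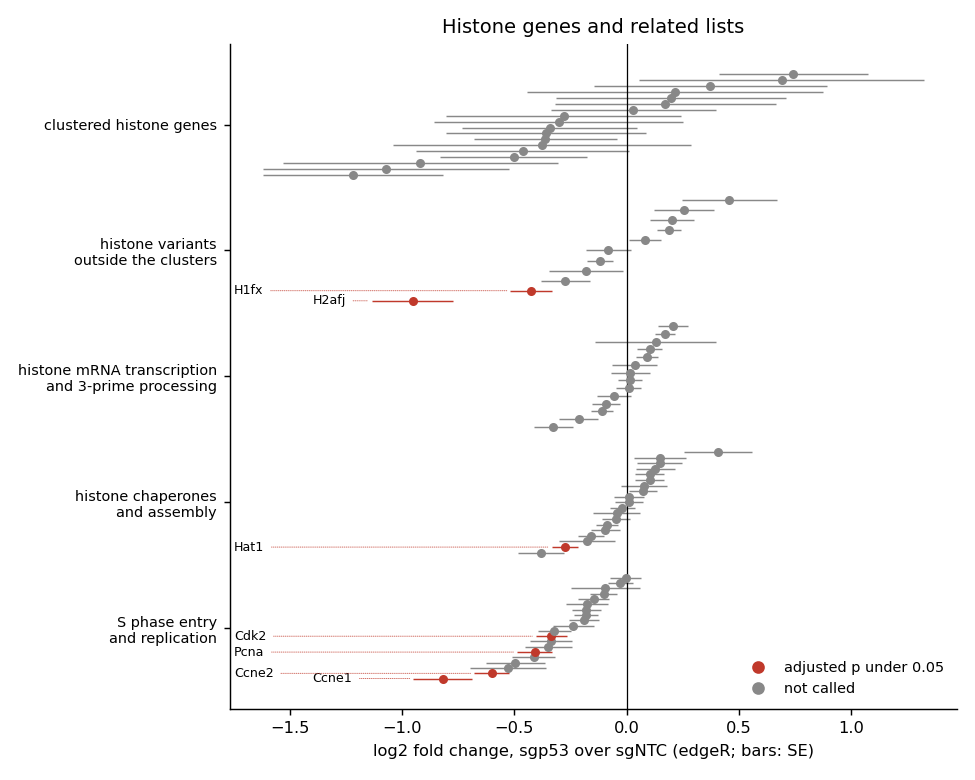
Log2 fold changes of sgp53 over sgNTC with their SE, from edgeR, for the tested clustered histone genes and for 4 related lists, with called genes in red and named. None of the 18 clustered genes is called, and all 20 S phase genes lie below 0.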

How the data were processed

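The deposited table held the authors' raw read counts per gene symbol, with no normalization, in a column for each library. CASAVA 1.8, STAR, DESeq2 and mm10 are named in the submitters' processing notes, with no role. The counter, annotation and use of strand are not given, so reads of near-identical or overlapping genes cannot be told apart. RNA had an integrity number above 8 and 1 µg entered each library, per the labels' protocols.

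The members, classes, gene lists and named genes were chosen with earlier results of these data known. Named are Trp53, every tested likely polyadenylated gene, any other member called, the 3 replication-type genes of highest mean CPM in each family, the testis-type genes and, for each other list, up to 3 called genes of smallest adjusted p or else the 2 of highest mean CPM.

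From the counts, sgp53 was tested against sgNTC over all genes with edgeR 4.0.16 in R 4.3.3 (glmQLFTest, TMM, filterByExpr, Benjamini-Hochberg adjusted p under 0.05). SE is the fitted coefficient divided by the root of its F value. Levels are CPM on TMM-scaled totals, and within-line differences are of log2 CPM with a prior count of 2. The line numbers pair the libraries, since both libraries of a number share a cell line per the labels; the correlation across genes of their deviations from group means was 0.0893, 0.00177 and −0.0272 for lines 1, 2 and 3. In the sample descriptions, lines 2 and 3 carry the same number and line 1 another, of unstated meaning. An exact permutation test of 3 against 3 libraries cannot go below p = 0.1. Replicates differed by more than sampling noise (chi-square per degree of freedom 21.8 to 58.0 within groups). Alternatives were the line as a block, RLE size factors, library totals, DESeq2 1.42.0, limma-voom (limma 3.58.1), other filters, each library or line left out and, chosen after seeing the data, a split of members by an annotated polyadenylation signal.

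Gene models, stem-loops and shared 50-base windows came from GENCODE M21, where all 68 members matched by symbol, and promoters from RefSeq.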

Additional observations from a re-analysis of the deposited data

Results flagged for a closer look

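In the clustered histone genes below, the difference between sgp53 and sgNTC had one direction in line 2, whose sgp53 cells are labelled functionally inactive for p53, and the opposite direction in lines 1 and 3, whose sgp53 cells are labelled p53 null. With 1 library for each line and guide, the difference between lines was not tested. The sgNTC libraries, all labelled p53 wild-type, differed among lines as well. The likely polyadenylated sum was 106, 45.6 and 73.5 CPM in sgNTC lines 1, 2 and 3, against 52.9, 77.3 and 44.2 CPM in sgp53. Hist1h4i had 6.67, 3.22 and 3.39 CPM in sgNTC, against 3.55, 3.70 and 3.09 CPM in sgp53. The direction within a line thus depends on its sgNTC library as much as on its sgp53 library. Among the likely polyadenylated genes, the difference in log2 CPM within line 2 (sgp53 minus sgNTC) was 0.63 for Hist1h1c, 1.21 for Hist3h2a, 0.80 for Hist1h2bc and 0.13 for Hist3h2ba. Among the replication-type genes it was 0.45 for Hist1h2ac, 0.57 for Hist1h2bg, 1.62 for Hist2h3c1, 1.10 for Hist2h3c2 and 0.19 for Hist1h4i. Each of these 9 genes was lower in sgp53 in lines 1 and 3, a pattern that 50% of tested members and 9.55% of all genes had. In line 3 the differences ranged from −1.52 for Hist3h2ba to −0.03 for Hist1h2ac (17 counts in sgp53 against 18 in sgNTC). They were −0.13 each for Hist2h3c1 and Hist1h4i. Another 6 of the 18 tested members were higher in sgp53 in lines 2 and 3 and lower in line 1. The summed CPM of the 8 likely polyadenylated genes showed the same, with a log2 ratio of 0.76 within line 2. The sum of the 56 replication-type genes did not, with a log2 ratio of 0.82 in line 2 and 0.39 in line 3.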

How the results depend on the processing

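The count of clustered histone genes called was 0 in the first fit and in each of the 16 alternatives, including the fit without a filter on low counts, where 61 members were tested. Over all genes, 841 were called, against 311 with the line as a replicate block, 2382 with DESeq2 and between 19 and 700 with a library or a line left out. Of 269 log2 fold changes of the 17 named tested members under alternatives, 0 passed the threshold and 246 kept their sign. The smallest adjusted p of any member lay between 0.0516 (DESeq2, Hist2h2be) and 0.41 (without line 3). The log2 ratio of summed CPM was 0.01 for replication-type genes, and ranged from −0.30 without line 2 to 0.60 without line 1. It was −0.37 for likely polyadenylated genes, from −0.88 without line 2 to 0.03 without line 1. Splitting members by an annotated polyadenylation signal, chosen after seeing the data, gave −0.35 with a signal and −0.15 without. The cause of these moves was not tested. Depth limits these values: 48 of 68 members had under 50 counts over the 6 libraries, and 50 were not tested.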

Other observations

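Outside the rule for named genes, and chosen after its values were seen, H2afx had its largest difference in line 2, where it was higher in sgp53, as most clustered genes were. It encodes the H2A variant that is phosphorylated at DNA breaks. Its level was 330, 405 and 307 CPM in sgp53 lines 1, 2 and 3, against 315, 180 and 264 CPM in sgNTC lines 1, 2 and 3. The log2 difference within line 2 was 1.17, against 0.07 in line 1 and 0.22 in line 3, and sgNTC line 2 was the lowest of the 6 libraries. The difference between the groups did not pass the threshold (log2 fold change 0.46, SE 0.21, edgeR adjusted p = 0.208). H2afz, another H2A variant, had between 374 and 443 CPM in all 6 libraries.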
